A study of Bos taurus with 27 samples.

Results

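Of 12310 genes retained in 27 pools of bovine blastocysts, 38 genes with at least 25% of their abundance in a single pool were examined. Most were weakly expressed elsewhere. They included a globin gene, matrix protein genes, interferon-inducible genes, a chemokine with a chemokine receptor, and the stress genes CHAC1 and HMOX1. Pools 9, 21, 12 and 14 were the highest pool for 23 of the 38 genes, and each of these pools held a different assortment. The genes were chosen by their measured values. Abundance was expressed as counts per 1e6 counts of the pool (CPM), a gene had to reach 1 CPM in at least 12 pools, and its highest CPM was divided by its CPM summed over the 27 pools. The limit of 25% was met by 42 genes, or 0.341% of those retained. Left out by name were 4 of these, IFNT3, DUXA, PAG11 and EIF1AY, together with every other gene of the TKDP and PAG families and IFNT2. The size of a share in the highest pool was fixed by this choice, so it is a description and no test was made of it.

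Each pool held the RNA of 2 in vitro produced blastocysts that had been graded stage 7 (expanding or expanded) and quality 1, the best grade. The oocytes came from abattoir ovaries, were matured with follicular fluid that Angus cows had supplied from preovulatory follicles classed as greater or lesser in maturity, were fertilized with semen of 1 bull and were cultured in KSOM, a medium for embryos. Both embryos of a pool had the same treatment and replicate, but groups were taken from the sample labels alone, which give a pool number only, so treatments were not assigned or compared here. With 27 pools as 1 collection, values are given as the lowest, the median and the highest pool, and in a bulk library a gene expressed in 1 embryo or both, in fewer cells or at a lower level per cell, cannot be told apart. Counts on genes ranged from 10517606 to 44253564 among pools (median 22293594), and 3 counts corresponded to between 0.0678 and 0.285 CPM. Markers of the blastocyst were present in all pools, with lowest values of 10633 CPM for the epithelial keratin KRT8, 109 CPM for the pluripotency factor POU5F1, 19.5 CPM for the hypoblast factor GATA6 and 1.97 CPM for the trophectoderm factor CDX2. Each pool was a separate set of embryos and was not sampled again, so a value in a single pool had no replicate.

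The blastocyst consists of the trophectoderm, an epithelium that forms the placenta, and an inner cell mass that separates into epiblast and hypoblast. A gene used by the lineages of every embryo appears in all pools. Transcripts of blood, connective tissue or meiosis are usually known from later development or from other tissues. Interferon-inducible genes respond to type I interferon, of which interferon tau from ruminant trophectoderm is the form that signals pregnancy to the dam. The amino acid response works through the factor ATF4, which raises enzymes of amino acid supply and stress regulators such as CHAC1 and TRIB3.

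If all pools were equal, each would hold 3.70% of a gene's summed CPM. Among the 12310 retained genes the highest share ran from 4.08% to 67.1% with a median of 6.47%, and 1773 genes (14.4%) had at least 10% in a single pool. The 38 genes had a median of 28.9%. Concentration in a single pool was therefore partial for most of them: 3 genes had over 50% in the highest pool, 13 had between 30% and 40%, and 22 had less than 30%. The highest pool was between 1.15 and 13.7 times the second highest, with a median of 2.57 times. This ratio was under 2 for 15 of the 38 genes and at least 5 for 3 genes, so the label of a single pool described the 25% limit better than it described the gap to the next pool. For 7 genes, the next pool again held at least 25% of what was left in the remaining 26 pools.

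**Figure D1:**
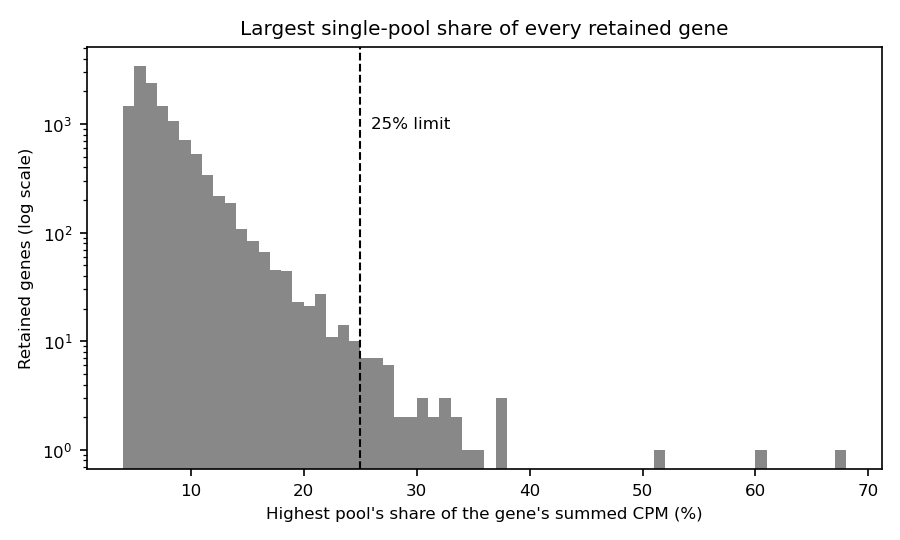
Number of retained genes (log scale) by the share of the summed CPM that lies in the highest pool (percent), with the limit of 25% as a dashed line. The counts fall steadily up to the limit, and 3 genes stand alone above 50%; the 4 genes left out by name are included in the bars.

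Abundance outside the highest pool was low. The median pool ranged from 0.726 to 30.2 CPM among the 38 genes, and the middle of these values was 1.54 CPM, against 14.4 CPM over all retained genes. Of 1644 retained genes with a median pool below 2 CPM, 22 (1.34%) were among the 38, compared with 13 of 3558 (0.365%) between 2 and 10 CPM and 3 of 7108 (0.0422%) at 10 CPM or more. The share in the highest pool could thus be large for genes near the limit of 1 CPM. Counts in the highest pool were nevertheless between 86 and 10337, with a median of 680.5. Zero counts in at least 1 pool were found for 19 genes, with 7 such pools for LOC107132075, the largest number, and the other 19 genes had counts in all pools. With the lower 95% Poisson limit of the count in the highest pool, which covers counting error only, 28 of the 38 genes remained at 25% or more.

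**Figure D2:**
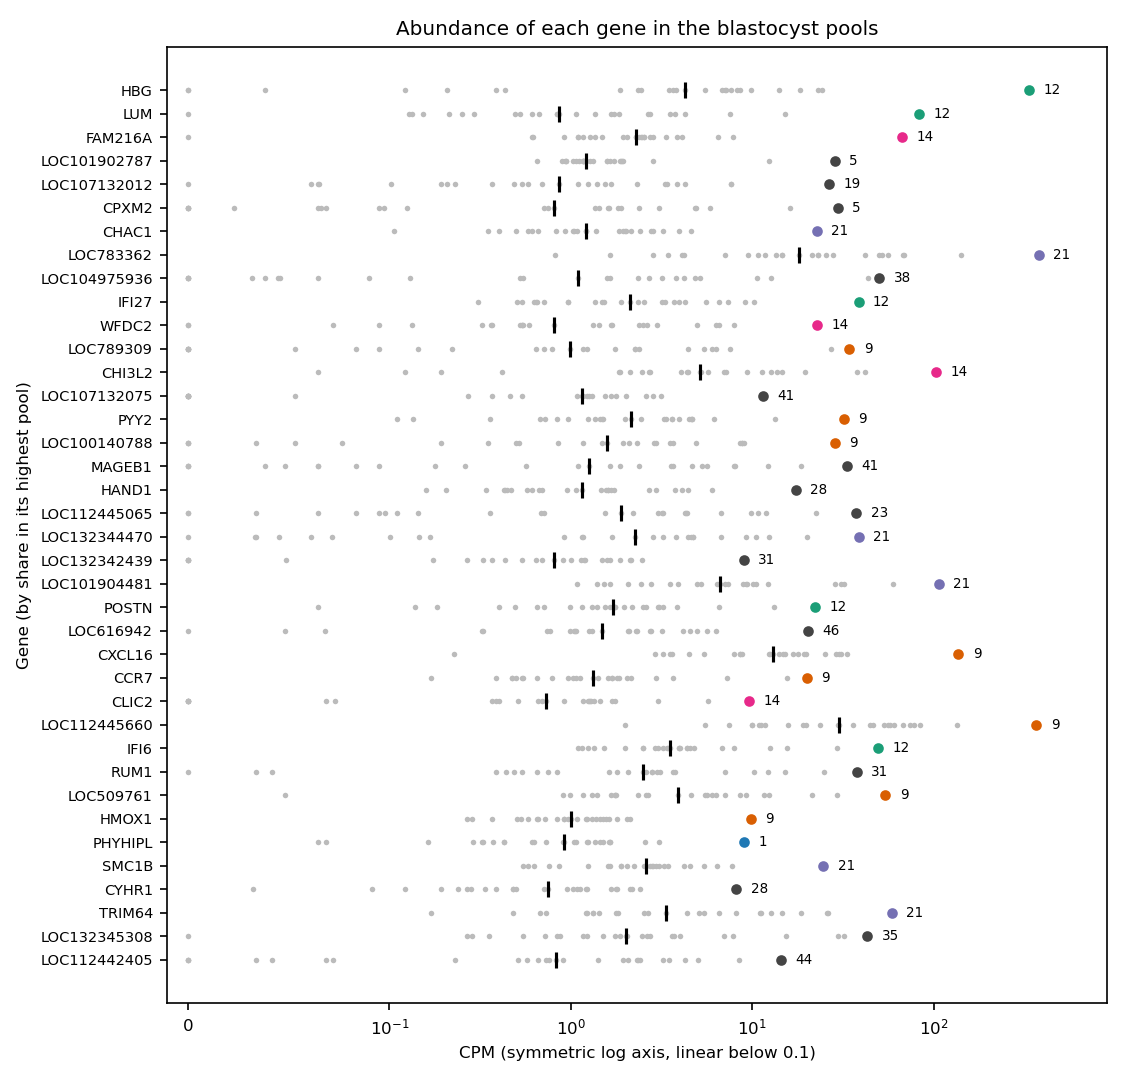
CPM of the 38 genes in each of the 27 pools, on an axis that is logarithmic above 0.1 CPM and linear below. Grey points are pools, the black bar is the median pool, and the larger point is the highest pool with its number; HBG, LUM and FAM216A show the widest gap between the highest pool and the rest.

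The 38 genes had much the same gene types as all retained genes but more often had a provisional symbol, a short span or a place on chromosome X, and these shares were not tested. Protein-coding genes made up 36 (94.7%), against 95.6% of the 12266 retained genes matched to RefSeq, and 2 were long non-coding RNAs. A provisional LOC symbol was carried by 16 (42.1%), against 9.24% of retained genes. Genes spanning under 5000 bases numbered 17 (44.7%), against 14.0%, and the median span was 7104.5 bases against 23858. Chromosome X held 6 (15.8%), against 3.64%, and chromosome Y held 1 of its 11 retained genes. The other 30 placed genes lay on 22 autosomes, and 1 gene lay on unplaced sequence. Genes of a shared locus were rare, since LOC789309 and LOC112442405 on chromosome 18 were the only pair with no retained gene between them, 22.883 kb apart, and their highest pools were different ones, pools 9 and 44. Short LOC genes can have near-identical copies between which the counting may have split reads, so their values are uncertain.

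In all, 15 of the 27 pools were the highest pool for at least 1 of the genes and 12 pools for none. Pool 9 held 8, pool 21 held 6, pool 12 held 5 and pool 14 held 4, while pools 5, 28, 31 and 41 held 2 each and pools 1, 19, 23, 35, 38, 44 and 46 held 1 each. The leading 4 pools were thus highest for 60.5% of the 38 genes, compared with 24.5% of all retained genes (3022). These pools were picked for holding the most of the 38 genes, so the difference follows at least in part from that choice. A pool that was often highest in general did not always hold concentrated genes. Pool 31 was highest for 9.20% of retained genes and for 2 of the 38, pool 32 was highest for 7.25% and for none, and pool 12 was highest for 3.46% and for 5. Of the other leading pools, pool 9 was highest for 7.37% of retained genes, pool 21 for 5.54% and pool 14 for 8.18%. The order was not that of depth: pool 9, with the most genes, had the fifth lowest total count, 14526367, and pool 23, with the highest total, held 1 gene. Pools 14, 23 and 41 were the second highest for 5 genes each, and pool 23 was among the highest 3 for 13 genes, more than any other pool.

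**Figure D3:**
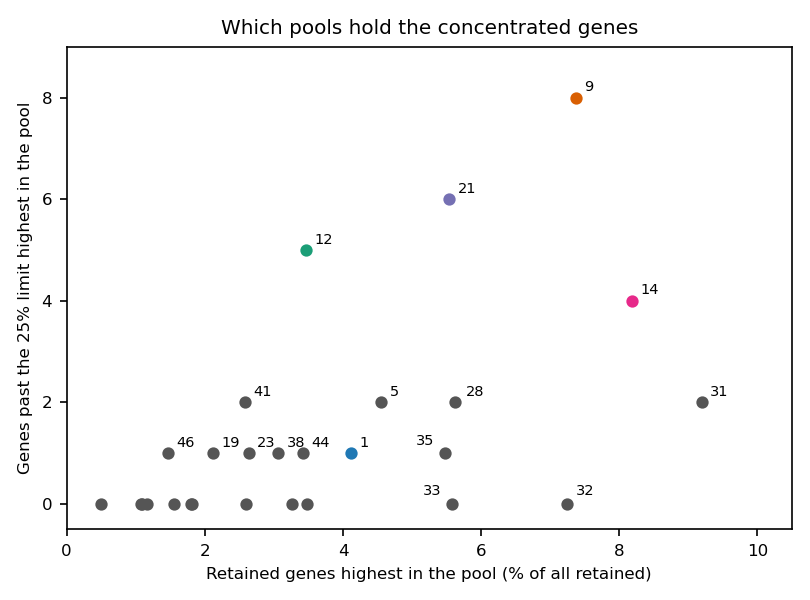
Number of the 38 genes for which a pool was highest, against the percent of the 12310 retained genes for which it was highest; each point is a pool. Pools 9, 21, 12 and 14 lie above the rest, and pool 32 holds none of the genes at 7.25% of retained genes.

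**Figure D4:**
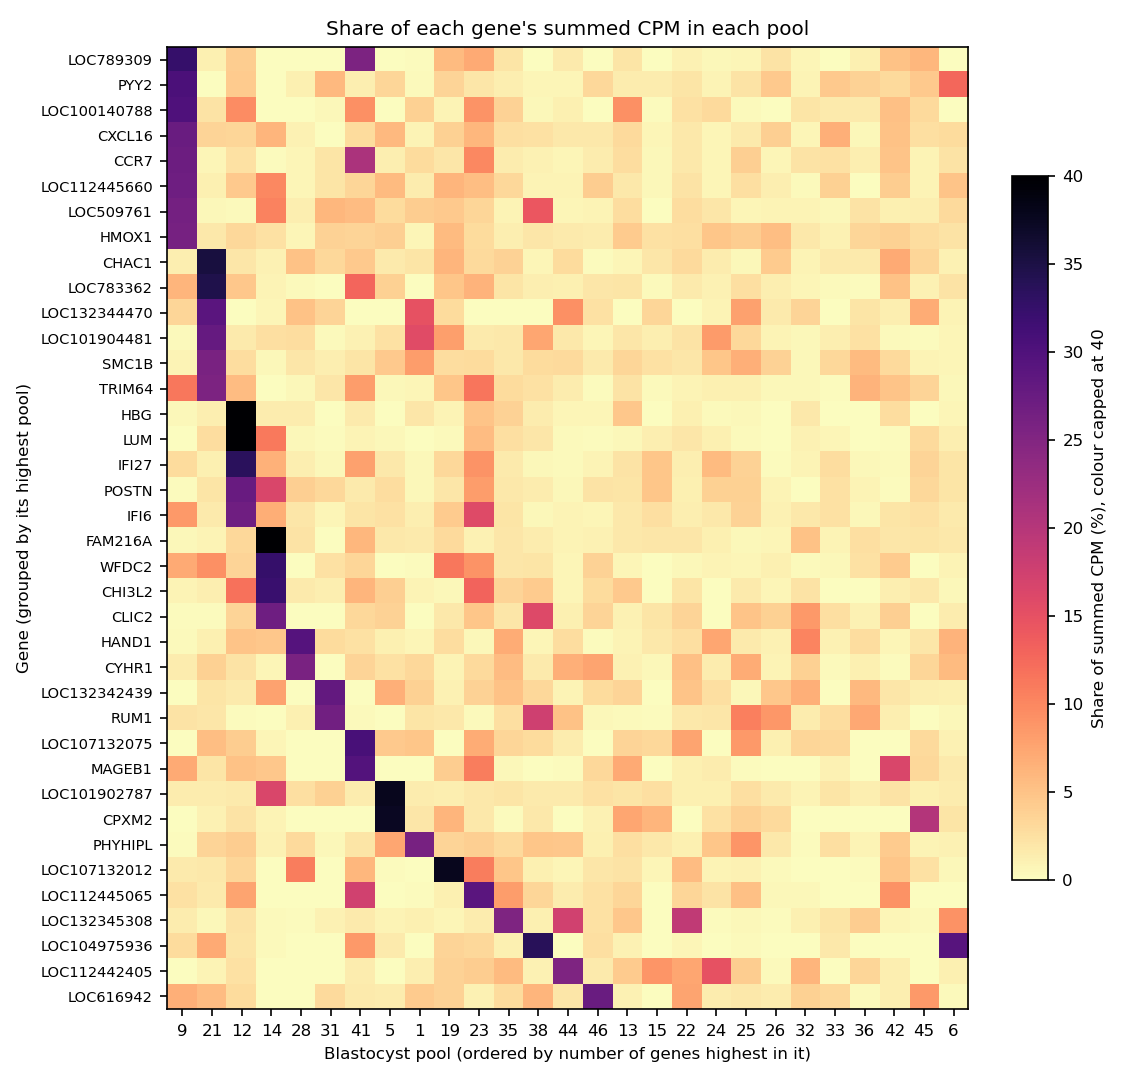
Share of each gene's summed CPM (percent, colour capped at 40) in each of the 27 pools, with genes grouped by their highest pool. The dark cells step from pool 9 to pool 46, and paler cells in the columns of pools 41 and 23 mark pools that were often next highest.

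Pool 12 held HBG and LUM, the genes with the largest shares in a single pool. HBG, which encodes a gamma-type globin chain of hemoglobin, occupies positions 48412408 to 48414039 of chromosome 15 (assembly ARS-UCD2.0, used for all positions). It was 333 CPM in pool 12 (9876 counts) and 0 to 24.3 CPM in the other 26 pools, and the median pool had 4.28 CPM. That pool held 67.1% of the summed CPM (95% Poisson interval 66.7% to 67.5%) and was 13.7 times the second highest, pool 23. The red cell transcripts fixed as a marker list were not raised with it to a like extent. In pool 12, the adult beta chain HBB was 3.21 CPM against a median of 2.42 CPM. ALAS2, the first enzyme of erythroid heme synthesis, was 15.3 CPM there, its highest value, against 14.2 CPM in pool 9. HBA, HBA1 and HBM of the alpha-type globins had 0 counts in pool 12, but also in most other pools. They had 0 counts in 25, 22 and 24 pools, and their highest values were 0.252, 0.551 and 0.673 CPM. Their 0 counts therefore do not set pool 12 apart. Summed over the 6 erythroid genes, pool 12 had 19.0 CPM and ranked second, with 21.3 CPM in pool 9 and 1.499 to 14.2 CPM elsewhere. Of 3 embryonic globin genes named after their values were seen, HBE2 had 0.742 CPM in pool 12 (22 counts) and at most 0.0321 CPM in any other pool, whereas HBE1 was highest in pool 44 (0.538 CPM), HBZ was highest in pool 24 (0.161 CPM), and both had 0 counts in pool 12. Globin genes of a cluster are alike in sequence, so the counting may have divided reads between them.

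The matrix genes LUM and POSTN were also highest in pool 12. LUM encodes lumican, a keratan sulfate proteoglycan that organizes collagen fibrils, and lies on chromosome 5 from 20971292 to 20981075. It was 82.8 CPM in pool 12, 15.2 CPM in pool 14 and at most 7.55 CPM in the other pools, with a median of 0.857 CPM and 0 counts in pool 9. At 96.6 times the median pool, this was the highest such ratio among the 38 genes. POSTN, which encodes the matrix protein periostin, had a gentler gradient over the same pools: 22.2 CPM in pool 12, 13.2 CPM in pool 14 and 6.58 CPM in pool 23, with a median of 1.72 CPM. The order of pools 12, 14 and 23 was the same for LUM and POSTN. Other collagen and fibroblast genes, named after their values were seen, were mostly not highest in pool 12. COL3A1, at 6.11 CPM (181 counts), and COL1A1, at 2.16 CPM (64 counts), were highest in pool 12, although neither was retained. Pool 12 held 66.0% of the summed CPM of COL3A1, with 0.972 CPM in pool 23, the second highest, and 19.6% of that of COL1A1. COL1A2 was 13.8 CPM there and ranked 22nd. DCN, another small proteoglycan of collagen, was 7.09 CPM and ranked 11th in pool 12. It was 13.2 CPM and second in pool 14. SPARC, FBN1, VIM and TWIST1 ranked 4th, 11th, 15th and 21st in pool 12. The part of any admixed cells in these values was not tested.

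A pair of interferon-inducible genes completed the set of pool 12. IFI27, on chromosome 21 from 58735561 to 58744457, encodes a mitochondrial protein induced by interferon alpha and was 38.5 CPM in pool 12, 10.3 CPM in pool 23 and 0.306 CPM in the lowest pool, with a median of 2.13 CPM. IFI6, on chromosome 2 from 125662191 to 125665797, is a related small membrane protein and was 49.2 CPM in pool 12, 29.3 CPM in pool 23, 15.6 CPM in pool 9 and 1.10 CPM in the lowest pool, with a median of 3.52 CPM. Pools 12 and 23 were the highest 2 pools for both genes. Of the 6 retained genes in the interferon-stimulated list, IFI6 alone was highest in pool 12. OAS1Y, which makes the activator of RNase L, was 8.30 CPM there and 8.52 CPM in pool 14, MX1, an antiviral GTPase, was 2.90 CPM against 16.9 CPM in pool 9, and ISG15, a ubiquitin-like modifier, was 3.68 CPM against 4.75 CPM in pool 9. The summed list was 73.3 CPM in pool 12, 53.4 CPM in pool 9, 42.6 CPM in pool 23 and 5.38 to 36.5 CPM elsewhere, with IFI6 the main contributor in pool 12. Interferon tau itself was not highest in pool 12, where IFNT3 was 45.5 CPM against a median of 40.6 CPM and 580 CPM in pool 9.

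**Figure D5:**
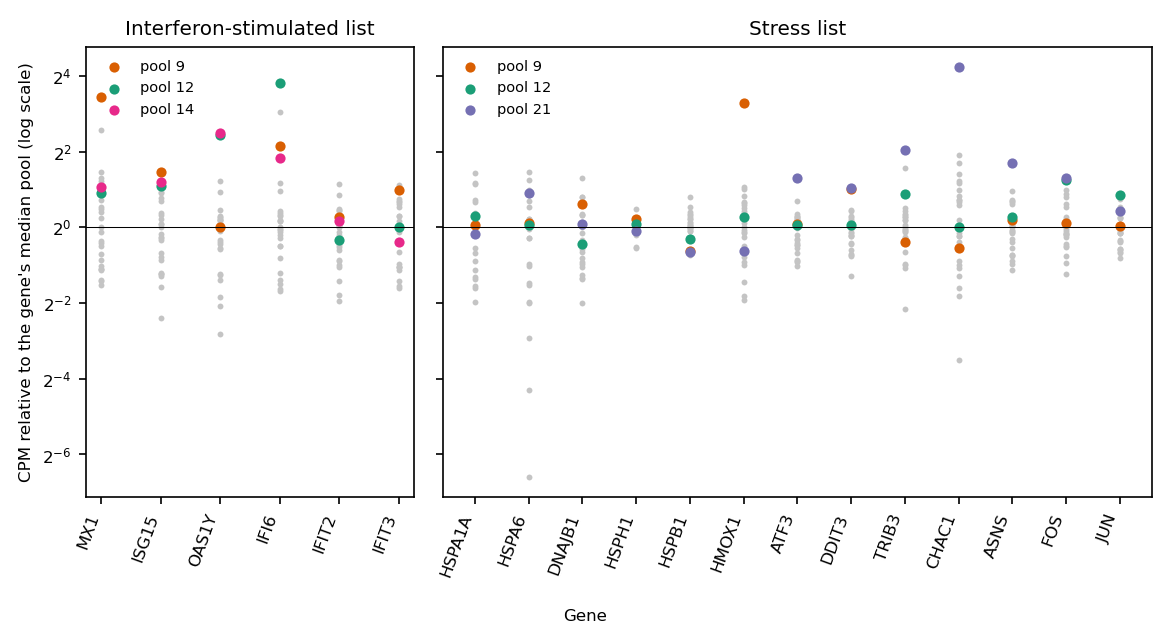
CPM of the retained interferon-stimulated genes (left) and stress genes (right) in each pool, relative to the median pool of the gene (log scale); grey points are pools and coloured points the named pools. IFI6 is highest in pool 12 but MX1 and ISG15 in pool 9, and CHAC1, TRIB3, ASNS, ATF3, DDIT3 and FOS are highest in pool 21; values of 0 cannot be drawn.

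Pool 9 was highest for 8 genes, more than any other pool, and 2 of them belong to the chemokine system. CXCL16, on chromosome 19 from 26615779 to 26619263, encodes a membrane-anchored chemokine that also takes up oxidized lipoprotein. It was 137 CPM in pool 9, 33.1 CPM in the second pool and 0.228 CPM in the lowest, the median pool having 13.0 CPM, so the gap to the second pool was 4.14 times. CCR7 encodes the lymphocyte and dendritic cell receptor for CCL19 and CCL21, and it was less set apart, with 19.96 CPM in pool 9 and 15.5 CPM in pool 41 (median 1.33 CPM). HMOX1, the inducible heme oxygenase of the oxidative stress response, was 9.78 CPM in pool 9 against 2.12 CPM in the second pool and a median of 1.01 CPM. Its count there was 142, and its share of 26.2% had a 95% Poisson interval of 23.0% to 29.5%, which includes the limit. Among the 13 retained genes of the stress list, HMOX1 was the only one highest in pool 9, and the summed list ranked 23rd of 27 in that pool. The sum was led by HSPB1, at 1144 CPM in pool 9 against a median of 1757 CPM. HSPB1, TRIB3 and CHAC1 were below their medians in pool 9, and the other retained genes of the list were above theirs.

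Markers of leukocytes also had their highest sum in pool 9. The 24 leukocyte genes summed to 258 CPM there, against 36.7 to 220 CPM in the others. Pool 9 was highest for 7.37% of all retained genes. It was highest for 6 of the 15 retained leukocyte genes: PTPRC, CD74, JCHAIN, CORO1A, CXCR4 and SRGN. Of these 6, CXCR4, at 14.6%, and CD74, at 11.9%, had over 10% of their summed CPM in that pool. Pools 25 and 1 ranked second and next, with 220 and 175 CPM of leukocyte markers. CXCL16 was 7.93 and 4.50 CPM in these pools, below its median of 13.0 CPM. The receptor CCR7 was 2.96 and 2.14 CPM there, above its median of 1.33 CPM. The defining T cell marker CD3E was 2.75 CPM in pool 9 and the B cell marker MS4A1 was 3.44 CPM, against medians of 0.900 and 0.920 CPM. None of the 24 genes had 0 counts in pool 9, which was also so in pools 1 and 23. Lineage markers were uneven in the same pool. The secreted trophoblast products IFNT3 (580 CPM, 25.7% of its summed CPM), TKDP1 (328 CPM), PAG2 (426 CPM) and PAG11 (34.4 CPM) were highest in pool 9, but GATA2 (18.7 CPM), TFAP2C (151 CPM), TEAD4 (6.54 CPM) and DAB2 (610 CPM) of the trophectoderm list were lowest there. The summed trophectoderm list, led by the keratin KRT8, ranked 18th. Of the hypoblast list, GATA6 was lowest in pool 9, at 19.5 CPM against a median of 211 CPM. FN1 and COL4A1 were also lowest there, at 294 and 11.2 CPM against medians of 712 and 45.4 CPM. APOA1, an apolipoprotein, was highest in pool 9, at 1904 CPM against a median of 735 CPM, and made up most of the summed list. The part of leukocytes and of differences between lineages in the 8 genes was not tested.

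The other 5 genes of pool 9 were LOC112445660, LOC509761, LOC789309, PYY2 and LOC100140788. LOC112445660, on unplaced sequence, was 368 CPM in pool 9, 135 CPM in pool 14 and 2.00 CPM in the lowest pool, with a median of 30.2 CPM, the highest median of the 38 genes. LOC509761, on chromosome 4 from 88343256 to 88378109, was 54.1 CPM, followed by 29.5 CPM in pool 38. LOC789309, on chromosome 18 from 48720894 to 48722644, was 34.3 CPM and closely followed by pool 41 at 26.997 CPM, so it was concentrated in a pair of pools that held 58.0% of its CPM. PYY2, which RefSeq also lists under the symbol SPLN, was 31.9 CPM against 13.3 CPM in pool 6. LOC100140788, a gene similar to the zinc finger gene ZNF596, was 28.4 CPM against 9.04 CPM in pool 12. Pool 41 was thus second to pool 9 for both LOC789309 and CCR7, with pool 9 only 1.27 and 1.29 times higher.

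Pool 21 held a stress gene, CHAC1, and a gene of meiosis, SMC1B. CHAC1, on chromosome 10 from 36485787 to 36488158, encodes an enzyme that degrades glutathione and is a target of ATF4. It was 22.7 CPM in pool 21, at most 4.58 CPM in the other pools and 1.21 CPM in the median pool, and the highest pool held 35.3% (95% Poisson interval 33.5% to 37.1%). Other genes of the stress list were highest in pool 21 by smaller margins, and what raised them was not tested. TRIB3, a pseudokinase that restrains ATF4, was 30.4 CPM against a median of 7.34 CPM, ASNS, asparagine synthetase, was 106 CPM against 32.5 CPM, and the transcription factors ATF3 and DDIT3 were 36.1 and 33.0 CPM against 14.7 and 15.9 CPM. DDIT3 was nearly as high in pool 33, at 32.2 CPM. In all, 6 of the 13 retained stress genes, the sixth being the immediate early gene FOS, were highest in pool 21, which was highest for 5.54% of all retained genes. None of the heat shock genes were, and the summed list, led by HSPB1, ranked 22nd in pool 21.

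SMC1B encodes the meiosis form of a cohesin subunit and was 24.6 CPM in pool 21, 7.75 CPM in pool 1 and 2.60 CPM in the median pool. The meiosis genes SYCP3, STAG3 and REC8, named after their values were seen, were not highest in pool 21. SYCP3 was 92.8 CPM there against a median of 92.8 CPM. STAG3 and REC8, which were not retained, were 0.110 and 0.183 CPM against medians of 0.285 and 0.126 CPM. TRIM64, on chromosome 29 from 5247502 to 5255571, belongs to a family of ubiquitin ligases and was 58.7 CPM in pool 21, 26.2 CPM in pool 23 and 25.8 CPM in pool 9. Its share was just above the limit. The uncharacterized genes of pool 21 were LOC783362, LOC101904481 and LOC132344470. LOC783362, on chromosome X from 17000515 to 17001438, was 378 CPM in pool 21, the highest CPM of any of the 38 genes, with 141 CPM in pool 41, 0.815 CPM in the lowest pool and a median of 18.0 CPM. LOC101904481, on chromosome 6 from 19139901 to 19141960, was 107 CPM, followed by 59.9 CPM in pool 1, and reached 1 CPM in all 27 pools. LOC132344470 lies on chromosome Y from 16875831 to 16888065 and was 38.7 CPM in pool 21 against 19.97 CPM in pool 1. All 5 retained genes of the Y-linked list were highest in pool 21 too, where they summed to 197 CPM against 0.430 to 118 CPM in the others, with pool 1 the second highest, and XIST, the RNA that coats an inactive X chromosome, was 0.146 CPM there. What the content of Y chromosomes adds to LOC132344470 was not tested. Oocyte transcripts were second highest in pool 21, where the 13 listed genes summed to 189 CPM against 274 CPM in pool 1.

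Pool 14 was highest for FAM216A, CHI3L2, WFDC2 and CLIC2. FAM216A, on chromosome 17 from 54360170 to 54368952, was 66.6 CPM in pool 14 and 0 to 7.78 CPM in the other pools (median 2.30 CPM). Pool 14 held 51.9% of it and was 8.55 times the second highest, so it was the gene set furthest apart after HBG. Secreted proteins made up most of the rest. CHI3L2, on chromosome 3 from 32155435 to 32180215, encodes a chitinase-like protein without known chitinase activity and was 103 CPM in pool 14, 41.7 CPM in pool 23 and 37.9 CPM in pool 12, with a median of 5.14 CPM. WFDC2, on chromosome 13 from 74360835 to 74367977, is a secreted protein with whey acidic protein domains and was 22.7 CPM against 7.90 CPM in pool 19, with a median of 0.804 CPM. CLIC2, which encodes an intracellular chloride channel protein, was 9.61 CPM against 5.74 CPM in pool 38, with 0 counts in 5 pools. Trophectoderm markers were also abundant in pool 14, where the list of 16 genes summed to 40952 CPM and ranked second, against 17896 CPM in pool 12, the lowest. Most of the sum in pool 14 came from the keratins KRT8, at 25852 CPM, and KRT18, at 9185 CPM. GATA3, a trophectoderm transcription factor, had its highest value there, 238 CPM. Among the retained genes of the list, ASCL2 was below its median in pool 14, at 0.747 CPM against 1.44 CPM, and the others were above theirs. Whether the proportion of trophectoderm bears on the 4 genes was not tested.

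The other 15 genes were spread over 11 pools. CPXM2, on chromosome 26 from 43495815 to 43632769, encodes a secreted member of the carboxypeptidase family and was 29.6 CPM in pool 5, followed by 16.0 CPM in pool 45, with 0 counts in 4 pools. LOC101902787, on chromosome 1 from 136696228 to 136696970, was 28.4 CPM in pool 5 and 12.4 CPM in pool 14, and at most 2.84 CPM elsewhere. Both genes of pool 5 therefore had a clear second pool, but not the same one. LOC107132012, a gene similar to LAGE3, which encodes a subunit of a transfer RNA modifying complex, lies on chromosome X from 37938896 to 37941264 and was 26.6 CPM in pool 19 against 7.61 CPM in pool 28. LOC104975936, on chromosome 26 from 3499465 to 3503787, was the least concentrated by its second pool, with 50.1 CPM in pool 38 and 43.6 CPM in pool 6, which together held 62.9% of its CPM. The next pool was 12.6 CPM and the median pool 1.09 CPM, so this gene was concentrated in a pair of pools.

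HAND1, a transcription factor of trophoblast and heart, was 17.4 CPM in pool 28, 6.02 CPM in pool 32 and 1.15 CPM in the median pool. CYHR1, a cysteine- and histidine-rich zinc finger protein, was 8.18 CPM in pool 28 against 2.40 CPM in pool 46, and this value rested on 86 counts, the fewest of the 38 genes, with a 95% Poisson interval of its share from 21.8% to 30.2%. Both were highest in the pool with the lowest total count. In pool 41, MAGEB1, an X-linked member of the melanoma antigen family normally restricted to testis, was 33.3 CPM against 18.6 CPM in pool 42, and LOC107132075, also X-linked, was 11.4 CPM against 3.14 CPM in pool 25. Pool 31 was highest for RUM1, at 37.5 CPM against 24.7 CPM in pool 38, and for the non-coding LOC132342439, at 8.96 CPM against 2.48 CPM in pool 14. Pools 1, 23 and 46 were highest for a single gene each. PHYHIPL, known from brain, was 9.00 CPM in pool 1, LOC112445065 on chromosome X was 37.5 CPM in pool 23, and LOC616942 on chromosome 23 was 20.3 CPM in pool 46. Their second highest pools had 3.05, 22.6 and 6.33 CPM, so LOC112445065 was the least set apart of these.

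Values on both sides of the limit were close. Just above it were TRIM64 at 25.6%, the non-coding LOC132345308 at 25.3%, with 42.9 CPM in pool 35 and 32.1 CPM in pool 22, and LOC112442405 at 25.3%, with 14.4 CPM in pool 44 and 8.45 CPM in pool 24. Just below it were MOS, a kinase of meiotic arrest in the oocyte, with 24.97% in pool 1, FABP6, a bile acid-binding protein, with 24.96% in pool 24, and RPGRIP1, a ciliary protein, with 24.94% in pool 21. The division at 25% was thus a cut through a continuous range, and a further 83 retained genes had between 20% and 25% in a single pool.

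The remaining marker lists had no common order over the 4 leading pools. Summed cumulus and granulosa markers ranked 7th in pool 9, 22nd in pool 21, 16th in pool 12 and 2nd in pool 14, and CYP19A1, aromatase, was 8.19 CPM in pool 5, its highest, and at most 2.06 CPM in those 4 pools. Sperm markers ranked 8th, 27th, 11th and 25th in the same order, keratinocyte markers 15th, 14th, 2nd and 16th, and muscle markers 11th, 23rd, 17th and 8th. For the embryonic lists, epiblast genes ranked 24th, 9th, 7th and 18th and hypoblast genes 6th, 24th, 18th and 7th. The hypoblast sum in pool 9 consisted mostly of APOA1. Genome activation genes were highest in pool 9, at 224 CPM, followed by pool 12 at 144 CPM and a range of 29.4 to 123 CPM in the others, and DUXA made up 110 CPM of the value in pool 9. Of the genes on the marker lists, 3 were among the 38: CHAC1 and HMOX1 on the stress list and IFI6 on the interferon-stimulated list.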

How the data were processed

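RNA of 27 pools of 2 blastocysts was reverse transcribed from the poly(A) tail (SMART-Seq v4 3' DE) and sequenced. The authors used fastp for trimming, STAR for alignment of forward reads to assembly ARS-UCD2.0 and featureCounts for counting, and deposited raw counts for 32637 genes, not normalized. Tool versions, the annotation release and use of strand are not given in the sources used here. Reads were not collapsed to molecules, so intervals cover counting error only.

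CPM, shares and Poisson intervals were computed in Python 3.11.15 (pandas 2.3.3, numpy 2.4.6, scipy 1.17.1), and TMM and DESeq2 size factors in R 4.3.3 (edgeR 4.0.16, DESeq2 1.42.0). Positions and gene types came from RefSeq. RefSeq descriptions and sequences were not used here, and the likeness of 2 LOC genes to named genes follows the study's gene names. The study reported both, LOC107132012 and LOC100140788, as more abundant in the lesser maturity treatment, a comparison that was not repeated here. The calculations were tested on simulated data. The genes and the 15 marker lists were chosen with earlier results of these data known. Genes described in detail were the 12 with the largest share, those on a marker list, the 3 with the highest CPM in each pool holding at least 3, and the 3 nearest the limit on each side. The other 16 are named to account for all 38, and groups by function were formed after their values were seen. Groups were taken from the sample labels alone, which name no treatment for a pool, so treatments were not compared and no test was made.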

Additional observations from a re-analysis of the deposited data

How the results depend on the processing

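The 38 genes, the 8 in the leading pool and the 15 pools stayed within 1.5 times of these values when each pool was left out in turn (35 to 47 genes, 8 to 10 in the leading pool, 14 to 17 pools). Between 31 and 38 of the 38 genes were shared, and pool 9 alone held the most genes in 15 of the 27 repeats. With TMM or DESeq2 factors there were 37 genes, 35 of them shared. LOC132345308 and LOC112442405 fell below 25%, LOC132342439 reached 1 CPM in 11 pools and was filtered out, RPGRIP1 rose to 25.2%, and LOC513329, named after its values were seen and at 73.3% in pool 31, reached 1 CPM in 13 pools instead of 11.

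The filter and the limit moved the counts. At 0.5 CPM in 12 pools there were 83 genes, with 15 in the leading pool, which became pool 14, and at 2 CPM there were 19 genes, with 5 in the leading pool and 8 pools. At 1 CPM in 6 pools there were 103 genes with 22 in the leading pool, and in 20 pools there were 13 genes with 4 in the leading pool and 5 pools. Without a filter 7687 genes met the limit, with 493 in the leading pool and all 27 pools represented. A limit of 20% gave 120 genes with 18 in the leading pool, 30% gave 16 genes with 3 and 8 pools, and 40% gave 3 genes with 2 and 2 pools. The highest pool was at least 3 times the next for 24 genes, with 4 in the leading pool and 14 shared with the 38, and at least 10 times the median for 82 genes, 34 of them shared. Pool 9 tied with pool 21 at 2 CPM and at 20 pools, and with pools 12 and 14 at 30%. Pool 12 was the leading pool at 40% and at 10 times the median. A stricter filter tests fewer genes by construction; the cause of the other changes was not tested.

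A further 2 alternatives were chosen after seeing the data. The lower Poisson limit left 28 genes, and without the 4 leading pools there were 35 genes in 13 pools, 10 of them among the 38.

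No paired analysis was possible because the labels, from which groups were taken, put no pool in a group. A value in a single pool cannot be checked against a second library of the same embryos, and genes with a median near 1 CPM can pass the limit on few counts elsewhere.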

Other observations

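Genes named here were chosen after their values were seen. Oocyte transcripts were mostly highest in the same pool, although none of the retained ones reached the limit. Of the 10 retained genes on the oocyte list, 8 were highest in pool 1, which was highest for 4.12% of all retained genes: GDF9, ZP2, ZP4, ZAR1, H1-8, KPNA7, NPM2 and MOS. GDF9, an oocyte growth factor, was 13.3 CPM in pool 1 against a median of 1.51 CPM, MOS was 70.7 CPM against 4.50 CPM, and NPM2, an oocyte histone chaperone, was 24.2 CPM against 3.06 CPM. BMP15, which was not retained, was 13.6 CPM in pool 1, 37.7% of its summed CPM, against 5.59 CPM in pool 21. The summed list was 274 CPM in pool 1 and between 32.2 and 189 CPM in the other pools.

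Among the 83 genes with 20% to 25% in a single pool, 6 encode replication-type histones on chromosome 23, and 5 of these were highest in pool 32, which held none of the 38 genes. Pool 32 was highest for 7.25% of all retained genes. H2BC15 was 637 CPM there against a median of 57.4 CPM, H2BC16 was 115 CPM against 11.8 CPM, H1-3 was 98.9 CPM against 13.5 CPM, H2BC11 was 59.3 CPM against 6.99 CPM and H2AC7 was 11.4 CPM against 1.11 CPM. Pool 44 was second for 3 of these 5 genes. The sixth, H2AC14, was highest in pool 31. RNA was reverse transcribed from the poly(A) tail, so histone transcripts without such a tail may be missed in these values. Pool 14 was highest for 12 of the 83 genes, pool 9 for 11 and pool 1 for 9. Over all retained genes, these pools were highest for 8.18%, 7.37% and 4.12%. Genes of serine and proline synthesis stood beside CHAC1 in pool 21, with PHGDH at 70.01 CPM and PYCR1 at 12.9 CPM, and in pool 9 UBD, a ubiquitin-like protein induced by interferon gamma, was 157 CPM.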
